A study of Mus musculus with 4 samples.

Results

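The AP-1 and immediate early transcription factors Fos, Fosb, Fosl1, Fosl2, Jun, Junb, Jund, Atf3, Egr1 and Srf were followed over the 4 conditions of the series. They were taken by gene symbol from the array annotation: 12 of the 41145 probes with a value on every array carried these 10 genes, out of 27582 gene names. 9 of the 10 were listed under the current symbol, and Jund stood under its older symbol Jund1, matched by its RefSeq transcript. RNA of embryonic mouse fibroblasts, which are connective tissue cells in culture, was hybridised to 4 one-colour Agilent arrays, 1 for each condition. Fibroblasts carrying the reprogramming factors c-Myc, Klf4, Sox2 and Oct3/4 by transduction had been kept for 72 hours under 21% or 5% O2 (day 4 in the labels) and are called four-factor cells. Untransduced fibroblasts had been kept for 10 days under 21% or 5% O2. The vectors, the mouse strain and the number of embryos are not given in the sources used here.

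AP-1 is a pair of basic leucine zipper proteins bound to DNA together. FOS proteins need a JUN partner, whereas JUN proteins can also pair with each other or with ATF proteins. Fos, Fosb, Jun, Junb, Atf3 and Egr1 are classic immediate early genes, switched on within minutes of serum, growth factors, stress or stretch without new protein synthesis, and Fosl1 follows later. SRF, the serum response factor, binds the CArG box in the control regions of Fos, Egr1 and many genes of the actin cytoskeleton. In fibroblasts, these factors are known for linking mitogens and mechanical tension to proliferation, matrix proteases and contractility.

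RefSeq promoters (build GRCm38.p6, 250 bases before to 50 after a transcript start) were given for 8 of the 10 genes, all but Fosl1 and Egr1. They were searched on both strands for the CArG box and for TGACGTCA (the cAMP response element), TGANTCA (an AP-1 site), ACGTG (the core bound by hypoxia-inducible factors) and GCGTGGGCG (an EGR1 site). Only 2 of the 8 windows held any of them. The window of Srf held 2 CArG boxes, a motif found in 1.63% of 32851 promoters, and that of Jund held ACGTG 2 times on the opposite strand, a core found in 19.6%. The other shares over these promoters, in which a chromosome was left out, were 1.79%, 7.81% and 0.612% for TGACGTCA, TGANTCA and GCGTGGGCG. The Srf window is shown because Srf is the only factor of the set that binds the CArG box. The Jund window is shown because Jund was the only member higher at 5% O2 in untransduced fibroblasts. That difference was 0.19 log2 units, within the scanner software's error given below, and any part of the core in it was not tested. Each run covers the 250 bases before the start, read along the gene's strand, at chr17:46556163-46556412 (minus strand) for Srf and chr8:70697489-70697738 (plus strand) for Jund, with the matches in capitals. A match describes the letters of this window and not binding. No match means only that the exact letters were absent from the window. Sites further upstream and sites that differ by a base were not searched.
Srf: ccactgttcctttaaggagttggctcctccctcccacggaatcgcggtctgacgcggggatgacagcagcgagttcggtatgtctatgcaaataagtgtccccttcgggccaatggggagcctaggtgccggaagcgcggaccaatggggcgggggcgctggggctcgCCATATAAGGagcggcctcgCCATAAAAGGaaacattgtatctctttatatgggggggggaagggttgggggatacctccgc
Jund: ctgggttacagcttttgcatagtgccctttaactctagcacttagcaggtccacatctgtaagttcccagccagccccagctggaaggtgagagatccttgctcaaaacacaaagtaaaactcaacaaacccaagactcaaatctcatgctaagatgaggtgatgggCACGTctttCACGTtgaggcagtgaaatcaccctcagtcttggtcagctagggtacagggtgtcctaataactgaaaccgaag

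Each level below is log2 of the processed signal over the 75th percentile of its array, on the gene's brightest probe, in the order four-factor cells at 21% and 5% O2 and then untransduced fibroblasts at 21% and 5% O2. A level compares 1 probe between arrays and not 1 gene with another. With 1 array per condition nothing was tested, no difference could be set against a spread between cultures, and this number of arrays bounds the precision. The scanner software's own error for a well-measured spot was 0.14 log2 units, which makes 0.20 for a difference between 2 arrays. This covers the spot and not the culture, and is the spot error named below. The measured spread was smaller. Over 163 to 190 replicated probes well above background per array, the median SD between spots was 0.04 to 0.05. A difference within the spot error can thus exceed the spread between spots. The 75th percentile of signal was between 811 and 1148 intensity units, from 57.1% to 68.4% of probes were well above background, and saturation was not reached in any spot. Each culture had both its arrays on 1 slide, so that in every comparison of four-factor with untransduced cells the transduction, the time in culture, the slide and the scan cannot be told apart. All 12 fibroblast markers checked were well above background on all 4 arrays. Of 19 macrophage markers, 11 and 10 passed the background in four-factor cells and 17 and 18 did so in untransduced fibroblasts, and their summed signal, in multiples of the 75th percentile, was 1.31 and 1.12 against 17.4 and 38.2. Adgre1, C1qa, C1qc, Mrc1, Ptprc, Aif1, Tyrobp and Cx3cr1 were not well above background on either four-factor array, and Itgam on neither untransduced array. The macrophage markers thus moved with oxygen in the untransduced cultures, where 5% O2 gave higher values for 16 of 17, for 14 of them by 2-fold or more, and their part in the differences below was not tested. In such bulk RNA, fewer cells of a type and less RNA per cell cannot be told apart.

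The largest range of any member measured on every array was that of Fosl1, which encodes FRA-1, a FOS protein without the strong activation domain of FOS. Its levels were 0.50, 0.03, -1.94 and -4.25 (probe on chromosome 19 from 5455496 to 5455555, mm8 as for all probes). Both four-factor arrays lay above both untransduced arrays, and within each culture the 5% O2 array was the lower one. In untransduced fibroblasts the oxygen difference was -2.31 (4.95-fold lower at 5% O2), with 7 of 15193 measured genes further down. In four-factor cells it was -0.47 (1.38-fold lower). Four-factor cells exceeded untransduced fibroblasts in Fosl1 by 2.44 (5.44-fold) at 21% O2 and by 4.28 (19.4-fold) at 5% O2, and only 0.272% of genes were further up in the latter comparison. Both values at 5% O2 in untransduced fibroblasts rest on 1 signal of 45.9 intensity units, against a lowest signal well above background of 24.9 on that array. With the normexp background correction, which compresses dim signals, the oxygen difference in untransduced fibroblasts was -1.44 and the four-factor difference at 5% O2 was 3.11, both still past 2-fold.

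Fosb, whose protein activates in its full form and whose short splice form lacks that activity, was dim. Its levels were -4.34, -4.51, -2.95 and -5.62, and the last of these was not well above background. Untransduced fibroblasts at 21% O2 stood above the other 3 arrays (chromosome 7, 18461650 to 18461709). In untransduced fibroblasts Fosb was at least 4.52-fold lower at 5% than at 21% O2, a bound taken against the lowest signal well above background and valid on the scale of the processed signal only, since the difference was -1.08 with normexp. The oxygen difference in four-factor cells was -0.17, within the spot error, and turned to 0.07 with normexp. Four-factor cells were lower by a difference of -1.39 (2.61-fold) at 21% O2 and, on that same scale, at least 1.53-fold higher at 5% O2. The first of these was under 2-fold with normexp (-0.95) and with spike-in scaling (-0.98), and the second was 0.20 with normexp.

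Fos, the prototype of the family, was printed in 10 spots per array, which gives its values a spread of their own. Its levels were -1.25 ± 0.06, -1.52 ± 0.07, -1.51 ± 0.04 and -2.21 ± 0.05 (SD over n = 10 spots of 1 array, chromosome 12 from 86366053 to 86366112). The spots of untransduced fibroblasts at 5% O2, from -2.30 to -2.15, lay below all others, and those of four-factor cells at 21% O2, from -1.34 to -1.15, lay above all others. The spots of the remaining 2 arrays overlapped, at -1.62 to -1.45 in four-factor cells at 5% O2 and -1.59 to -1.45 in untransduced fibroblasts at 21% O2. The oxygen difference in Fos was -0.28 with transduction and -0.70 without, with standard errors between spots of 0.03 and 0.02. Four-factor cells were higher by 0.27 at 21% O2 and by 0.69 at 5% O2, and with spike-in scaling by 0.67 and 1.31, the latter past 2-fold.

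Fosl2, which encodes FRA-2, had levels of 0.47, 0.24, 1.12 and 0.78 on its brighter probe (chromosome 5, 32433832 to 32433891). Both untransduced arrays were above both four-factor arrays, opposite to Fosl1. The oxygen differences were -0.23 and -0.35, in four-factor and untransduced cells, and the four-factor differences were -0.65 at 21% and -0.53 at 5% O2, the latter turning to 0.09 with spike-in scaling. A much dimmer second probe (32429296 to 32429355) had levels of -4.84, -5.13, -4.01 and -4.31 and the same directions throughout. Within the FOS group, Fosl1 and Fos were thus higher in four-factor cells at both oxygen levels, Fosl2 was lower at both, and Fosb differed in direction between them.

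**Figure D1:**
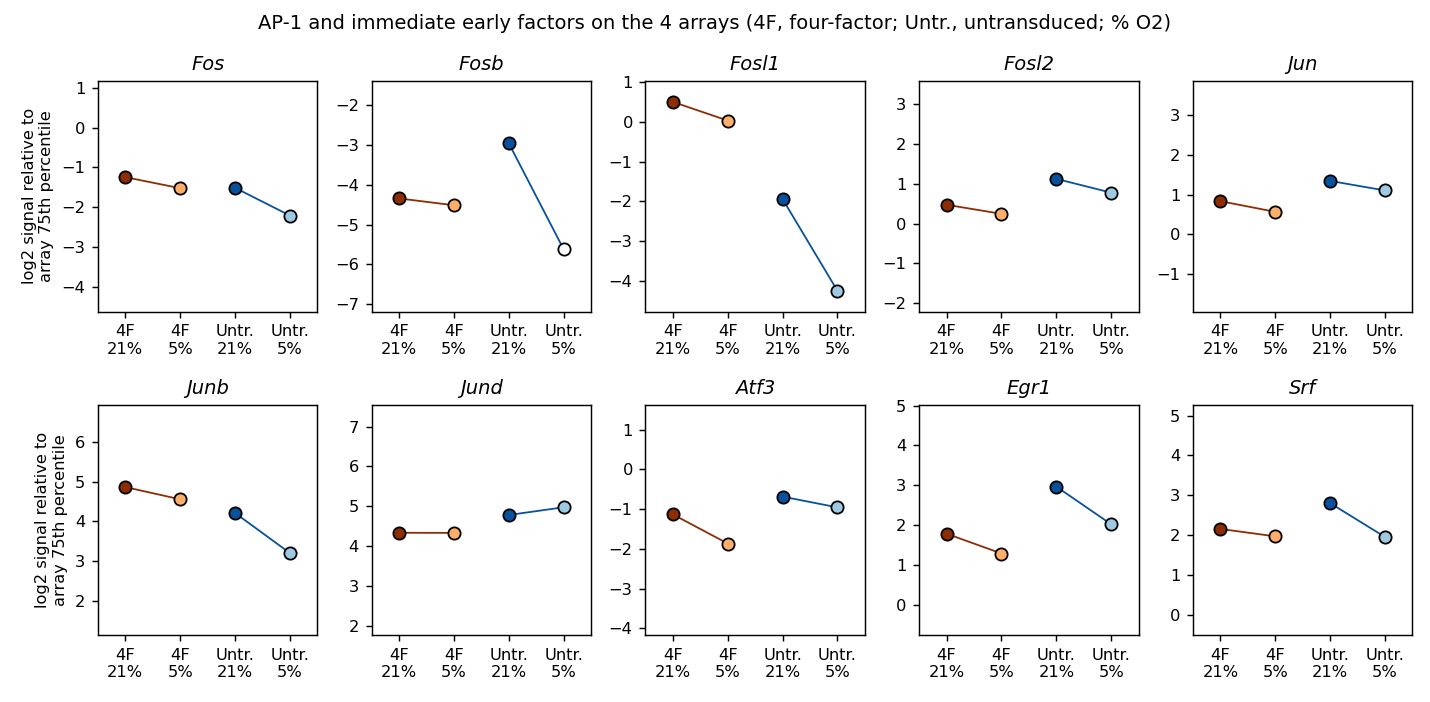
Levels of the 10 genes on the 4 arrays, as log2 signal over the 75th percentile of each array (1 point per array, every panel spanning the same number of log2 units, lines joining the arrays of a culture, white point not well above background; the SD over spots of Fos and Jun is smaller than the points and hidden by them). Fosl1 runs from 0.50 to -4.25, while Jun stays between 0.57 and 1.34.

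Among the JUN genes, Jun, the strongest activator of the 3, moved little with oxygen. Its levels were 0.83 ± 0.05, 0.57 ± 0.04, 1.34 ± 0.03 and 1.10 ± 0.03 (SD over n = 9 spots of 1 array, chromosome 4 from 94541191 to 94541250). The 4 arrays did not overlap in their spots, and within each culture the 5% O2 array was the lower one. The oxygen differences of Jun, -0.27 with transduction and -0.24 without, differed by -0.03. Four-factor cells were lower by differences of -0.51 and -0.54 at 21% and 5% O2, but with spike-in scaling the latter was 0.08.

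Junb, a weaker activator that can also restrain JUN, had levels of 4.86, 4.56, 4.21 and 3.20 (chromosome 8, 87867087 to 87867146). Untransduced fibroblasts at 5% O2 were again the lowest array and four-factor cells at 21% O2 the highest, as for Fos. The oxygen difference was -1.01 in untransduced fibroblasts (2.01-fold lower) and -0.31 in four-factor cells. The former lies at the 2-fold threshold and was -0.99 with normexp, -0.93 with quantile normalization and -0.94 as the mean of both Junb probes. Four-factor cells were higher by 0.65 at 21% O2 and by 1.35 (2.55-fold) at 5% O2, the former past 2-fold with spike-in scaling (1.05). The other Junb probe (87867049 to 87867108), which overlaps the first, had levels of 3.91, 3.75, 3.43 and 2.56.

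Jund, the JUN gene known for steady expression in resting cells, had levels of 4.33, 4.33, 4.78 and 4.97 (chromosome 8, 73629526 to 73629585). It was the only member with a higher level at 5% O2, by 0.19 in untransduced fibroblasts, which is within the spot error. In four-factor cells the difference was -0.0029, with a sign that turned under median centring (0.01), quantile normalization (0.02) and spike-in scaling (0.15). Four-factor cells were lower by differences of -0.45 at 21% and -0.64 at 5% O2. Junb and Jund therefore stood on opposite sides in the four-factor comparisons, under each of the alternatives tried.

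**Figure D2:**
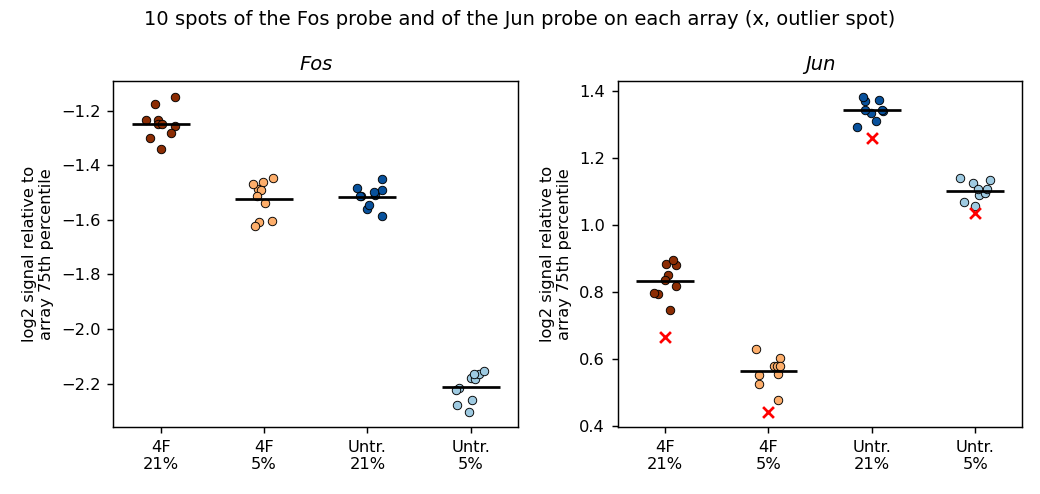
The 10 spots of the Fos probe and the 10 of the Jun probe on each array, as log2 signal over the 75th percentile of each array (points, spots used, bars, their mean, crosses, the 1 Jun spot per array that the scanner software marked as an outlier). The Fos spots of untransduced fibroblasts at 5% O2 end at -2.15, below every other Fos spot, and the spread shown is between spots and not between cultures.

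Atf3, a stress-induced factor that represses as a homodimer and pairs with JUN proteins, had levels of -1.13, -1.87, -0.69 and -0.96 (chromosome 1, 192871283 to 192871342). It was the member with the largest oxygen difference in four-factor cells, -0.73 (1.66-fold lower), with 3.09% of 17924 genes further down. In untransduced fibroblasts the difference was -0.27. Atf3 was thus the member for which the four-factor cells had the larger oxygen difference by more than the spot error, with a gap of -0.46 log2 units that was not tested. Four-factor cells were lower by differences of -0.45 at 21% and -0.91 at 5% O2.

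Egr1, a zinc finger factor induced by serum through SRF, had levels of 1.78, 1.28, 2.96 and 2.02. Both four-factor arrays were below both untransduced arrays, and the 5% O2 array was the lower one in each culture. The oxygen differences of Egr1 were -0.50 with transduction and -0.95 (1.93-fold lower) without, the latter just short of the 2-fold that Junb passed, and past it with spike-in scaling (-1.02). Four-factor cells were lower by a difference of -1.18 (2.27-fold) at 21% O2 and -0.73 at 5% O2, and the former was -0.78 with spike-in scaling. Srf had levels of 2.15, 1.97, 2.80 and 1.95, so that untransduced fibroblasts at 21% O2 stood above 3 arrays that lay close together. Its oxygen difference was -0.85 (1.80-fold lower) in untransduced fibroblasts and -0.19 in four-factor cells, within the spot error. The four-factor difference was -0.65 at 21% O2 and 0.02 at 5% O2, the latter -0.06 with normexp, -0.09 with quantile normalization and 0.64 with spike-in scaling.

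Taken over the set, all 10 members had lower values at 5% O2 in the four-factor culture (median difference -0.27). Of these differences 3 were within the spot error, those of Fosb, Srf and Jund, the last at -0.0029. With normexp, median centring and quantile normalization 9 of 10 were lower. Of all measured genes in this culture 51.7% were lower, 48.3% were higher and their median was -0.01. In untransduced fibroblasts 8 of 9 measured members were lower, with a median of -0.70, where 55.0% of genes were lower, 45.0% were higher and the median was -0.04. These member medians stayed below 0 under every alternative. 8 of the 9 members measured on all arrays were lower at 5% O2 in both cultures, which share no array, against 31.5% of 14927 genes, and none was higher in both, against 23.9%. None of the 10 members was at least 2-fold lower or higher in four-factor cells (background 1.07% and 1.26% of genes). In untransduced fibroblasts 2 of 9 were at least 2-fold lower, Fosl1 and Junb (background 1.72%), with Fosb in addition by its bound, and none was 2-fold higher (background 2.56%). For 7 of the 9 members the untransduced difference was the larger in size, as it was for 53.7% of genes. The gap between both oxygen differences was widest for Fosl1, at 1.84, the 20th largest in this direction of 14927 genes. Scaling on spike-in probes sets each array against those probes and not against its overall signal. In four-factor cells it moved the split of 2-fold genes from 226 higher and 192 lower to 334 and 104. This scaling raised the median of all genes there by 0.15 and left 9 of 10 members lower.

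**Figure D3:**
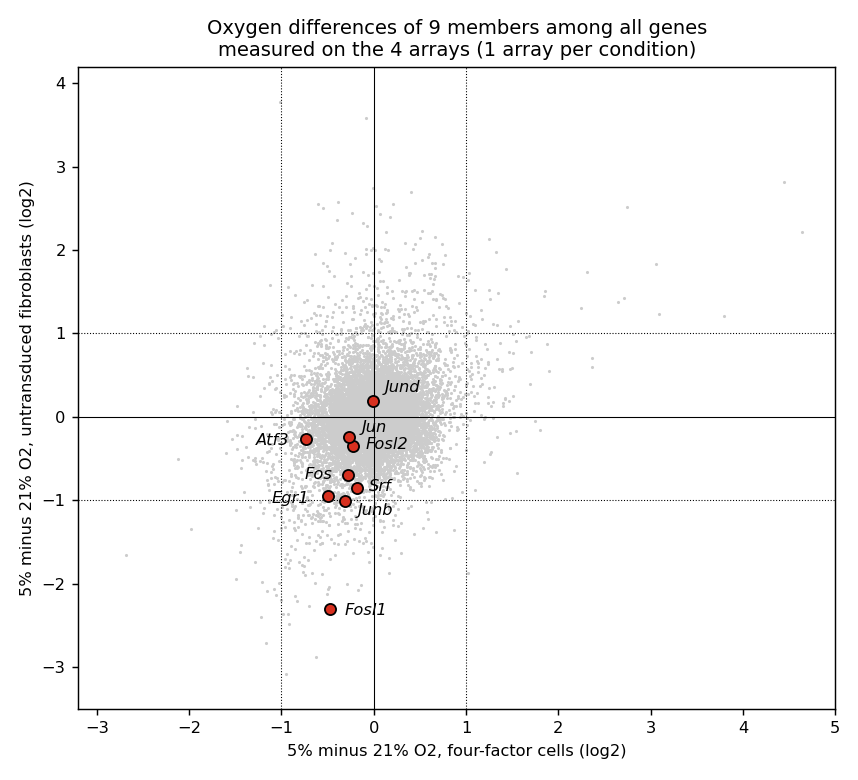
Oxygen difference (5% minus 21% O2, log2) with four-factor cells on the horizontal axis and untransduced fibroblasts on the vertical one, for 14927 genes measured on all 4 arrays (grey) and 9 of the members (red), with dotted lines at 2-fold. Of the 9 members 8 lie below 0 on both axes, Fosl1 at -0.47 and -2.31, while Jund lies at -0.0029 and 0.19.

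With transduction the members split. At 21% O2 3 of 10 were higher and 7 lower in four-factor cells (background 49.1% and 50.9% of genes), and at 5% O2 4 of 9 were higher and 5 lower (background 49.3% and 50.7%). Srf alone of the 9 differed in direction between the oxygen levels, as did 9.98% of genes. At 21% O2 Fosl1 was at least 2-fold higher in four-factor cells (background 11.8% of 15213 genes) and Fosb and Egr1 were at least 2-fold lower (background 16.6%), so 3 of 10 members passed against 28.4% of genes. At 5% O2 Fosl1 and Junb were at least 2-fold higher (background 17.1% of 15447 genes) and none of 9 lower (background 20.0%), so 2 of 9 passed against 37.1%. Fosl1 was the one member at least 2-fold higher at both oxygen levels (background 10.7%), and none was 2-fold lower at both (background 14.2%). These shares are near the background. Of the 12 fibroblast markers 7 and 8 were at least 2-fold lower in four-factor cells at 21% and 5% O2, with medians of -1.71 in both, and of 7 epithelial markers 5 and 6 passed the background with transduction against 2 and 5 without it. Their part in the member values was not tested, nor that of the fibroblast markers. The member medians were -0.48 and -0.53, against -0.02 for all genes in both comparisons, and with spike-in scaling -0.08 and 0.09. Spike-in scaling changed the split of 2-fold genes from 1802 higher and 2525 lower to 3468 and 1661 at 21% O2, and from 2642 and 3086 to 5392 and 1721 at 5% O2. It raised the median of all genes by 0.40 and 0.62. Since it moves every gene of a comparison by the same constant, the order of the members could not change. Median centring raised the median of all genes by 0.15 and 0.17, with 2346 higher and 2141 lower at 21% O2. The comparison at 5% O2 and the oxygen comparison in untransduced fibroblasts share an array. On it Fosl1, Fos, Junb, Fosb and, narrowly, Srf were lowest. The comparison at 21% O2 shares the other untransduced array with that oxygen comparison. There Fosb, Fosl2, Jun, Atf3, Egr1 and Srf were highest, among them both members at least 2-fold lower at 21% O2.

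**Figure D4:**
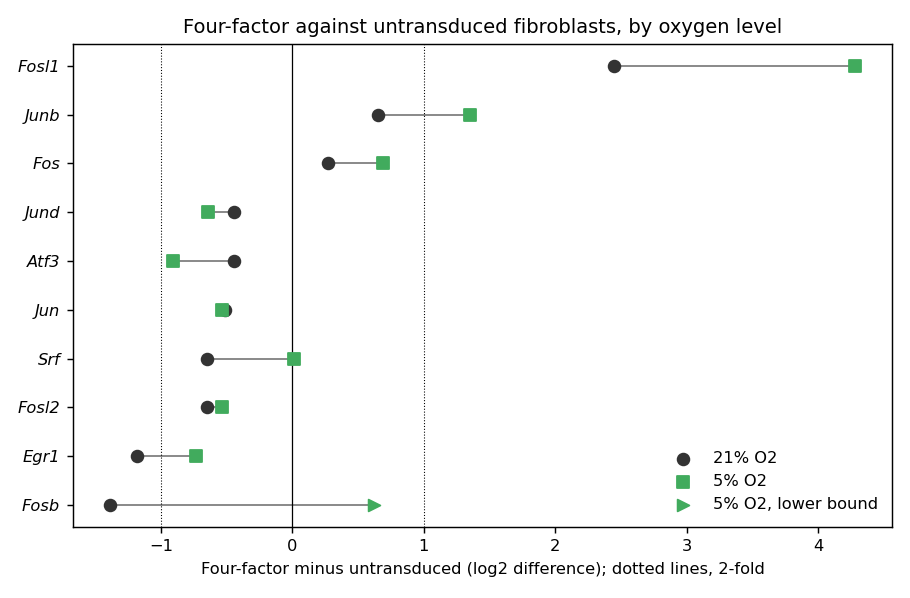
Four-factor minus untransduced differences (log2) of the 10 members at 21% O2 (circles) and 5% O2 (squares, arrow for the lower bound of Fosb), with dotted lines at 2-fold. Fosl1 goes from 2.44 to 4.28 and Junb from 0.65 to 1.35, while Jun stays at -0.51 and -0.54.

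Other genes of the same response were counted from lists, beside the background of all genes given above. Of 27 other immediate early genes, 26 were measured in four-factor cells, of which 21 were lower at 5% O2, with a median of -0.40, and 25 in untransduced fibroblasts, where 23 were lower with a median of -0.74. At least 2-fold lower were 1 and 9 of them, and none was 2-fold higher. The 1 in four-factor cells became 0 with normexp, median centring, quantile normalization and spike-in scaling. Ccn1, a matricellular protein, was lower by differences of -1.01 and -1.34 in four-factor and untransduced cells. The orphan nuclear receptor Nr4a1 stood at -1.70, the zinc finger factor Egr3 at -1.56 and the kinase Plk3 at -1.45 in untransduced fibroblasts. Egr3 was dim there at 5% O2, with a level of -4.91, a lower signal than that of Fosl1 on the same array. In four-factor against untransduced cells 25 genes of this list were measured at each oxygen level. At 21% O2 4 were 2-fold higher and 6 lower (background 11.8% and 16.6%), and at 5% O2 6 and 4 (background 17.1% and 20.0%). Spike-in scaling made this 5 and 2 at 21% O2 and 12 and 0 at 5% O2, and the sign of the median depended on the alternative at both levels. In four-factor cells Nr4a1 was higher by 2.36 at 5% O2, the phosphatase Dusp1 by 1.48 and Phlda1 by 1.48 at 21% O2, and the synaptic gene Arc was lower at -1.84 and -1.45.

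Genes known as AP-1 targets were lower at 5% O2 for 18 of 20 in the four-factor culture (median -0.55, 2 at least 2-fold) and in 15 of 17 in untransduced fibroblasts (median -1.06, 9 at least 2-fold). These 15 were lower in both cultures. In untransduced fibroblasts the cyclooxygenase Ptgs2 had a difference of -3.09, the chemokine Ccl2 -2.37 and the matrix protein Spp1 -2.21. In four-factor cells Il11, a cytokine, stood at -1.09 and Ereg, a growth factor, at -1.01, but neither passed 2-fold with normexp or spike-in scaling, where the count was 0, while it was 5 with the mean of all probes. The metallothioneins Mt1 and Mt2 were the 2 targets higher at 5% O2 in both cultures, Mt1 by 0.34 and 0.19 and Mt2 by 0.30 and 0.39. Against untransduced fibroblasts, four-factor cells had 8 of 18 of these targets at least 2-fold higher and 1 lower at 21% O2, and 13 of 17 higher and none lower at 5% O2. Ptgs2 was higher by 2.51 and 4.65, the chromatin protein Hmga1 by 2.72 and 3.36 and the urokinase receptor Plaur by 2.03 and 2.12. Several of these targets are also made by other cells and the list is not specific to AP-1.

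Actin-regulated SRF targets were lower at 5% O2 in 15 of 16 cases in each culture, with medians of -0.60 and -1.07, and 1 and 9 at least 2-fold lower. Ankrd1, a nuclear protein of stretched muscle, had differences of -1.22 and -2.39, and the calponin Cnn1, the smooth muscle actin Actg2 and the matricellular protein Ccn2 stood at -1.90, -1.59 and -1.51 in untransduced fibroblasts. At 21% O2 all 16 were lower in four-factor cells, with 3 at least 2-fold lower (Tpm2 at -1.29, Cnn2 at -1.25 and Ccn2 at -1.10). This count was 0 with spike-in scaling and 7 with quantile normalization. Spike-in scaling adds 0.40 to each of the 16 differences. That exceeds the size of those of Actg2 (-0.32) and Flna (-0.33), so not all 16 stayed lower with it. At 5% O2 the median was -0.42 with 1 gene 2-fold lower and none higher, and with spike-in scaling 0.20 with none lower and 3 higher. Of the SRF and EGR cofactors none was 2-fold apart with oxygen in four-factor cells, and only Myocd, the smooth muscle coactivator of SRF, was so in untransduced fibroblasts, at -1.21, though not with normexp or with the mean of all probes. Fhl2, an SRF-binding LIM protein, was lower in four-factor cells at -2.32 and -2.54, and Mrtfa, the actin-sensing coactivator, at -1.03 at 5% O2.

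**Figure D5:**
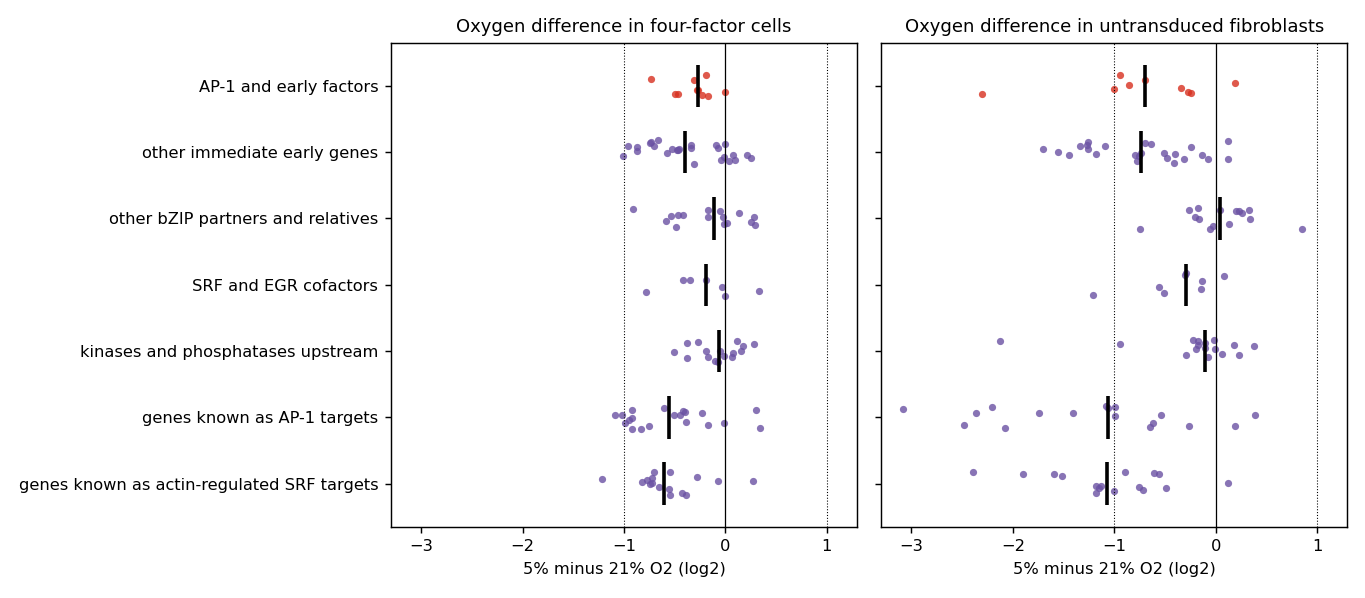
Oxygen differences (5% minus 21% O2, log2) of the members (red) and of the 6 lists (purple), 1 panel per culture, for genes well above background on both arrays of a panel (points, genes, bars, medians, dotted lines, 2-fold). The AP-1 targets have medians of -0.55 and -1.06 and the actin-regulated SRF targets -0.60 and -1.07, whereas the other bZIP genes have medians of -0.11 and 0.04.

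Of 17 other basic leucine zipper genes, none was 2-fold apart with oxygen in either culture, and 11 of 16 and 7 of 15 were lower at 5% O2. In four-factor cells, however, 6 of 16 were at least 2-fold lower at 21% O2 and 8 of 15 at 5% O2, with none higher. With spike-in scaling 5 and 4 were lower and 1 was higher at each level. Jdp2, a repressor that pairs with JUN proteins, stood at -2.46 and -3.17, the stress factor Ddit3 at -2.09 and -2.95 and Atf5 at -1.78 and -2.64. Among 16 upstream kinases and phosphatases, none was 2-fold apart with oxygen in four-factor cells. In untransduced fibroblasts only Dusp4, a phosphatase that is induced by ERK and acts on it, was 2-fold apart, at -2.13. In four-factor cells Dusp4 was higher by 1.13 and 2.75, and the neural JNK gene Mapk10 by 2.44 and 2.33. The differences of Mapk10 rest on low signals in untransduced fibroblasts, with levels of -4.56 and -4.33 at 21% and 5% O2.

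The genes whose levels followed a member most closely were found by the Euclidean distance between levels centred per gene over the 4 arrays, among 12683 genes. For Fosl1 they were Crct1 (distance 0.58 log2 units), Ptgs2 (0.68), Aif1l (0.81), Rgs5 (0.86) and Myc (0.91), the last a transduced gene. For Egr1 they were Foxs1 (0.12), Mir22hg (0.15), Ttll11 (0.15), Catsper3 (0.16) and Nppa (0.18), and for Junb Lpar6 (0.07), Rab27b (0.07), Rab3b (0.09), Baalc (0.14) and Timp1 (0.14). Over 4 arrays many genes share a shape, and these distances are a description. Fosl1 itself, with its large range, had no neighbour as close as those of Egr1 and Junb.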

How the data were processed

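Total RNA of 4 samples was labelled with Cy3 by the Quick Amp protocol 5.7, per the labels' protocols. The arrays (design 014868, positions in mm8) were read with Feature Extraction 9.5.3.1 under protocol GE1-v5_95_Feb07. Per the file headers, the software had subtracted background from the deposited intensity of each spot and detrended it within the array. The authors' value table was on a log2 scale. Once a constant offset per array was removed, it matched the values used here to 0.01 for at least 99.8% of probes on every array. Here log2 of the processed signal was taken minus the 75th percentile of its array, outlier spots (65 to 115 of 43379 per array) were left out and spots of a probe averaged. The brightest probe stood for a gene. Probe accessions were matched to a RefSeq gene table (24364 probes) for names. Probe positions were not set against gene models.

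A gene was counted at 2-fold where it was well above background on both arrays. With 1 array per condition no test was made. For a gene dim on 1 array the fold is a bound, against its own signal there or the dimmest well-measured probe, whichever is higher. The counting was tested on simulated data. The members, lists and rules were chosen with earlier results of these data known. All members are described, with up to 4 genes per list and comparison (largest 2-fold differences with probes of 1 direction) and the 5 closest genes for each of the 3 members of largest range. Mt1, Mt2, Mmp10 and Batf3 were added after their values were seen. Some genes that the rule names are not reported here. The 8 alternatives were normexp (limma 3.58.1, R 4.3.3, offset 50), median centring, quantile normalization, scaling on 8 spike-in probes, the deposited table, the mean of all probes, no filter on dim probes and a 1.5-fold threshold. Python 3.11.15 with pandas 2.3.3 was used.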

Additional observations from a re-analysis of the deposited data

Results flagged for a closer look

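Jund had oxygen differences of opposite sign in the 2 cultures, -0.0029 after transduction and 0.19 without it. The difference between them was not tested, and both are within the spot error of 0.20. Srf was lower in four-factor cells at 21% O2, with a difference of -0.65, and level at 5% O2, with 0.02, and this difference was not tested either.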

How the results depend on the processing

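Of the 40 member differences, 35 kept their direction under the alternatives, and none of the 7 that passed 2-fold changed sign. The 5 that changed were Fosb and Jund with oxygen in four-factor cells, and Srf, Fosl2 and Jun between cultures at 5% O2, the last 2 with spike-in scaling. Not every alternative could turn a sign. The deposited table has nearly the same scaling, and dropping the filter or lowering the threshold leaves the values as they are. The mean of all probes can move only Fosl2 and Junb. The count therefore rests mainly on normexp, median centring, quantile normalization and spike-in scaling. The count of members 2-fold lower with oxygen in untransduced fibroblasts (2) was 1 with normexp, with quantile normalization and with the mean of all probes, 3 with spike-in scaling and with no filter on dim probes, and 5 at 1.5-fold. The count lower in four-factor cells at 21% O2 (2) was 1 with normexp, 0 with spike-in scaling and 4 at 1.5-fold, and the count higher there (1) was 2 with spike-in scaling and at 1.5-fold. The count higher at 5% O2 (2) was 3 with spike-in scaling, with no filter and at 1.5-fold. At 1.5-fold 1 member was lower with oxygen in four-factor cells and 3 were lower in four-factor cells at 5% O2 (both 0 at 2-fold). Over all genes, 2-fold counts were 97 higher and 38 lower with normexp in four-factor cells (226 and 192 in the values reported) and 199 and 132 in untransduced fibroblasts (389 and 262, and 329 and 316 with spike-in scaling). No replicate could be left out, and no paired analysis was possible because each condition has 1 array. Low signals limit Fosb, the dim Fosl2 probe and Fosl1 at 5% O2 in untransduced fibroblasts.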

Other observations

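On each array 1 of the 10 Jun spots was marked as an outlier by the scanner software and left out, and it was below the mean of the other 9 on all 4 arrays, by differences of -0.17, -0.12, -0.08 and -0.07 log2 units. Mmp10, a matrix protease among the AP-1 targets, was well above background on both four-factor arrays (levels of -2.77 and -3.17) and on neither untransduced array. Batf3, a partner of JUN proteins, was well above background on every array but that of untransduced fibroblasts at 5% O2, as was Fosb.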
